A study of Mus musculus with 6 samples.

Results

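Olig1, Olig2, Nkx2-2, Myrf, the SoxD genes Sox5, Sox6 and Sox13 and the SoxE genes Sox8, Sox9 and Sox10 encode transcription factors of the oligodendrocyte lineage. These 10 genes were taken by symbol from a table of 26264 genes, and all 10 passed the filter on low counts that left 14554 genes for testing. Their RNA was counted in 6 bulk libraries of neural stem cells from mouse spinal cord (strain background C57BL6J). The cells were grown with EGF and FGF2, carried the PDGFRaGFP reporter, and were sorted by fluorescence into GFP-positive and GFP-negative cells, with 3 libraries of each. The genotype is labelled PDGFRaGFP/+ for the GFP-positive libraries and PDGFRaGFP/- for the GFP-negative ones, and the design text describes both as sorted fractions of the same reporter mouse. Pdgfra encodes the receptor for platelet-derived growth factor and marks oligodendrocyte precursor cells. The labels give neither the age of the mice nor how the reporter was built, nor whether libraries came from separate animals or cultures, and p-values therefore reflect library-to-library spread, which may be technical.

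As background, Olig2 and its neighbour Olig1 are basic helix-loop-helix (bHLH) factors. Olig2 specifies motor neuron and oligodendrocyte precursors in the ventral spinal cord, while Olig1 acts more in their later maturation. Nkx2-2 is a homeodomain factor of the ventral cord that takes part in precursor differentiation. SoxE factors carry an HMG box and activate transcription: Sox9 promotes the switch of neural stem cells to glia, Sox10 drives myelin genes, and Sox8 overlaps with both. SoxD factors share the HMG box but have no activation domain of their own, and Sox5 and Sox6 restrain SoxE activity in precursors. Myrf is made as a membrane-bound protein, cuts itself, and its released part turns on myelin genes together with Sox10.

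RefSeq promoter windows (build GRCm38.p6, 250 bases before the start) were held for 6 of the 10 genes. These are Olig2, Nkx2-2, Sox5, Sox8 and Sox13 with a single start each, and Sox6 with 6 starts. The stretches of 4 genes are printed so that 3 genes that rose with GFP (Olig2, Nkx2-2, Sox8) can be read beside 1 that did not (Sox5). Each runs 5′ to 3′ on the strand of its gene and ends before the first base that GENCODE places in an exon of that gene. Capitals mark ACAAT or its reverse complement ATTGT, the core bound by Sox HMG boxes.
Olig2, chr16:91225300-91225456, plus strand: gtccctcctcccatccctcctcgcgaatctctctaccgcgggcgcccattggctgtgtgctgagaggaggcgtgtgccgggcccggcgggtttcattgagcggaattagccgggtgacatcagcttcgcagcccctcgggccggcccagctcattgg
Nkx2-2, chr2:147186456-147186652, minus strand: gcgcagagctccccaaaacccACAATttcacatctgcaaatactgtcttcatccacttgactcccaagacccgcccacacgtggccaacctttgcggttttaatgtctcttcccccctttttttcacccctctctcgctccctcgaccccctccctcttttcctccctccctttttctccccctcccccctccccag
Sox8, chr17:25570687-25570936, minus strand: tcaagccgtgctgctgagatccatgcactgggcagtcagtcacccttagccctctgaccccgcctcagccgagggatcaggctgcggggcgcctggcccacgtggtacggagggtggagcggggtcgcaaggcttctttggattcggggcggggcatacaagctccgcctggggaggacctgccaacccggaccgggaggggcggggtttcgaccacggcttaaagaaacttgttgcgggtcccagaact
Sox5, chr6:143947107-143947356, minus strand: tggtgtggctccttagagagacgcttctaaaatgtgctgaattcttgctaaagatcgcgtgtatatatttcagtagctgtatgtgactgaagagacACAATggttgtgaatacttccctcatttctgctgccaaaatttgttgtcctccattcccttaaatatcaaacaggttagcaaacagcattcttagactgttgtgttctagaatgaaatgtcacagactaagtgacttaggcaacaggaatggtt
In the full windows, ACAAT on either strand occurred 1 time each in Olig2 (past the printed stretch), Nkx2-2 and Sox5, and 0 times in Sox8 and Sox13. Of the 6 Sox6 windows, 3 held it. It is found in 27.7% of 32851 windows of this length. The E-box CAGCTG, which Olig2 can bind, was in none of the windows of the 5 genes with a single start and in 1 Sox6 window, against 13.0% of all windows.

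The libraries held between 31067850 and 45207335 counts. Pdgfra, the gene behind the sort, lay at 237, 205 and 245 CPM (counts per 1000000 counts, with TMM scaling) in GFP-positive replicates 1, 2 and 3 and at 8.04, 19.3 and 13.9 CPM in the GFP-negative ones. Replicate numbers follow the titles, where each number also carries a second label, 314, 315 or 316, shared by a GFP-positive and a GFP-negative library. GFP-negative replicate 2 stood apart within its fraction: chi-square per degree of freedom over genes was 34.2 and 33 against replicates 1 and 3, and 17.6 between those. GFP-positive replicate 2 was also the most distant in its fraction, at 18.9 and 14.3 against replicates 1 and 3, and 9.83 between those. Summed markers of oligodendrocyte precursors were at 6955.3 to 7361 CPM in GFP-positive and 4487.4 to 4742.6 CPM in GFP-negative libraries, and those of astrocytes at 469 to 602 against 3530.9 to 4451.1 CPM. Ptprz1, the largest part of the precursor sum in each library, was nearly level, at 2933.2 to 3325.8 against 2928.4 to 3473.9 CPM. The precursor sums therefore differed less than most of these markers did. Of 12 precursor markers, 11 rose, while 10 of 11 astrocyte markers (10 tested) fell. Pdgfra, whose rise follows from the sort, is among those 11, and Ptprz1 did not rise. Over all genes tested, 26.1% were called higher and 29.2% lower. Of 8 markers of committed precursors, a later stage, 6 were tested, 5 rose and 1 fell (summed level 751 to 807 against 262 to 314 CPM). Of 8 neuron markers 5 were tested, 3 rose and 0 fell (36.0 to 44.7 against 10.8 to 19.4 CPM). Neural stem cell genes, picked with their values known, were present in each library and lower with GFP: Sox2 at 237 to 248 against 296 to 352 CPM, Pax6 at 35.0 to 38.6 against 51.8 to 63.9 CPM, and Nes (287 to 298 against 860 to 990 CPM), Vim (523 to 689 against 1943.8 to 2666 CPM) and Fabp7 (552 to 613 against 2042.7 to 2087.3 CPM) by a wider margin. The part of these marker differences in the values of the factors was not tested. Of 8 microglial markers 7, of 5 endothelial markers 4 and of 10 fibroblast and mural markers 7 stayed below 1 CPM in every library. Of 9 Schwann cell and neural crest markers, other sources of Sox10, 3 stayed below 1 CPM in every library, and Foxd3 had 0 counts in all. Egr2 (17.8 to 31.9 CPM), Pmp22 (5.51 to 7.35 CPM), Prx, Mitf, Cdh19 and Dhh were detected. Of the 9, 6 were tested, 0 rose and 3 fell. The summed level was lower in the GFP-positive libraries (38.0 to 48.9 CPM) than in the GFP-negative ones (51.2 to 77.2 CPM).

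Of the 10 factors, 8 rose in GFP-positive cells and 0 fell by the edgeR test with adjusted p below 0.05 over all genes. Among all genes tested 55.4% were called, 26.1% higher and 29.2% lower, so the share of factors called higher was above the background. That comparison is a description only, because the factors were chosen with earlier results of these data known. Their median log2 fold change was 0.83, where the median of all genes was -0.006. A positive log2 fold change means a higher level with GFP throughout. Sox10 and Myrf had the largest changes, Sox6, Sox8 and Nkx2-2 roughly doubled, and Olig2, Olig1 and Sox9 rose by less. The rise exceeded 1 on the log2 scale in 4 factors (6.07% of all genes). Sox5 and Sox13 did not pass the test. Without GFP-negative replicate 2 the counts were again 8 higher and 0 lower. For 7 of the 10, every GFP-positive library lay above every GFP-negative one (31.3% of all genes), and for 1, Sox5, every one lay below (33.0% of all genes). In a bulk sample, fewer cells of a type and less RNA per cell cannot be told apart.

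**Figure D1:**
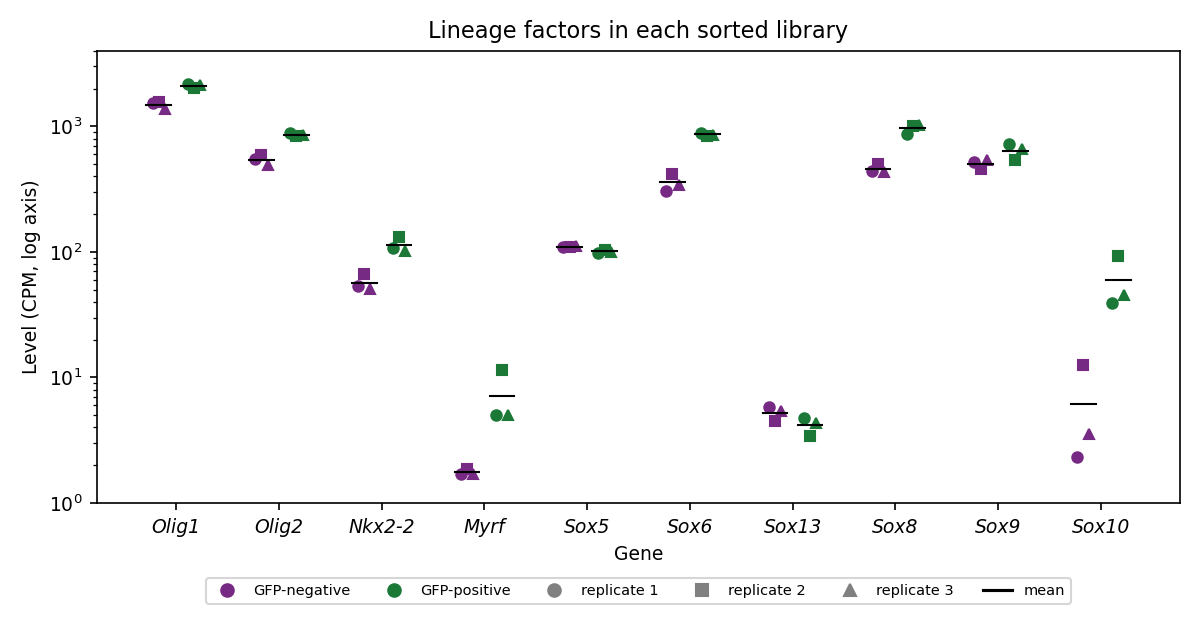
Level of each factor in CPM (log axis) in the 3 GFP-negative and 3 GFP-positive libraries, with marker shape for the replicate and a bar for the mean. Olig1 is the most abundant by count in all 6 libraries, Sox10 and Myrf are low in GFP-negative cells, and Sox5 is nearly level.

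Both Olig genes were abundant in either fraction and modestly higher with GFP. Olig1 (Entrez 50914) stood at 2181.5, 2018.6 and 2123.3 CPM in GFP-positive replicates 1, 2 and 3 and at 1525.6, 1550.6 and 1386.4 CPM in the GFP-negative ones. The fractions did not overlap, and the GFP-negative mean was 70.6% of the GFP-positive mean. The log2 fold change was 0.50 (SE 0.07, edgeR adjusted p = 0.000471). Olig2 (Entrez 50913) was at 889, 844 and 850 CPM against 547, 588 and 494 CPM. Again no GFP-negative library reached the lowest GFP-positive one, and the log2 fold change came to 0.66 (SE 0.07, edgeR adjusted p = 0.000145). In both genes pair 2 showed the smallest difference, 0.38 for Olig1 and 0.52 for Olig2 on the log2 CPM scale, and pair 3 the largest, 0.61 and 0.78.

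Nkx2-2 (Entrez 18088) was about 2-fold higher in GFP-positive cells, at 107, 130 and 101 CPM against 53.2, 66.3 and 50.5 CPM. Replicate 2 was the highest library in both fractions, and the 3 pair differences lay within 0.03 of each other on the log2 scale (1.01, 0.98 and 1.00). This was the narrowest range among the 10 factors. The log2 fold change was 0.99 (SE 0.13, edgeR adjusted p = 0.000317). The antisense gene Nkx2-2os shares 278 exon bases with Nkx2-2 in GENCODE and had 117 to 351 counts per library, against 1559 to 5905 for Nkx2-2. The strand setting of the counting is not given in the sources used here, so reads of the shared stretch cannot be told apart. Genes annotated on the opposite strand also share exon bases with Olig1 (157), Sox5 (1330) and Sox8 (329), and were not analysed here.

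Myrf was low in both fractions and carried the second largest fold change. Myrf (Entrez 225908) had 183, 522 and 185 counts in GFP-positive replicates 1, 2 and 3 and 56, 59 and 53 in the GFP-negative ones, or 4.99, 11.5 and 5.03 against 1.70, 1.88 and 1.72 CPM. GFP-positive replicate 2 held more than double the level of the other GFP-positive libraries, while the GFP-negative libraries were nearly equal. The log2 fold change was 2.03 (SE 0.35, edgeR adjusted p = 0.00158), and 1.51 (edgeR adjusted p = 0.000832) without GFP-positive replicate 2. Pair differences were 1.52, 2.58 and 1.52 on the log2 scale.

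The SoxD genes, the partners that lack an activation domain, did not move together. Sox6 (Entrez 20679) was at 891, 845 and 861 CPM with GFP, against 308, 420 and 344 CPM without. GFP-positive libraries were within a few percent of each other (coefficient of variation 2.71%), and the spread lay in the GFP-negative ones (16.0%). The log2 fold change was 1.28 (SE 0.11, edgeR adjusted p = 3.82e-05). Sox5 (Entrez 20678) stood at 98.9, 104 and 101 CPM against 110, 109 and 112 CPM. Each GFP-positive library was below each GFP-negative one, but the difference was small and did not pass the threshold over all genes (log2 fold change -0.12, SE 0.05, edgeR adjusted p = 0.0627). It passed with upper-quartile scaling (-0.14, edgeR adjusted p = 0.0373), with a filter of 1 CPM in 3 libraries (-0.13, 0.046) and with the trend on length and GC removed in the blocked fit (-0.31, 0.00295). Sox13 (Entrez 20668), the least studied SoxD gene in this lineage, had 141 to 192 counts per library and stood at 4.71, 3.44 and 4.32 CPM against 5.82, 4.49 and 5.38 CPM. The fractions overlapped, the log2 fold change was -0.33 (SE 0.18, edgeR adjusted p = 0.148), and all 3 pairs had the GFP-positive library lower, by -0.30, -0.38 and -0.31. In the blocked fit with the length and GC trend removed it was -0.42 (edgeR adjusted p = 0.0409).

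The SoxE genes all rose, by very different amounts. Sox8 (Entrez 20681) was at 868, 1014.6 and 1020.4 CPM with GFP, against 444, 500 and 434 CPM without. The groups were well apart, and the log2 fold change came to 1.07 (SE 0.09, edgeR adjusted p = 3.02e-05). Sox9 (Entrez 20682), which is also a marker of astrocytes and neural stem cells, was at 720, 539 and 665 CPM against 519, 457 and 541 CPM. GFP-positive replicate 2 lay just under GFP-negative replicate 3, so the fractions overlapped, although each pair had the GFP-positive library higher (0.47, 0.24 and 0.30 on the log2 scale). The log2 fold change was 0.34 (SE 0.11, edgeR adjusted p = 0.0302). The call was lost without replicate 1 (edgeR adjusted p = 0.151), without replicate 3 (0.102), without GFP-positive replicate 1 (0.0941) or 3 (0.0902), and without GFP-negative replicate 1 (0.0556). These fits had no replicate block. With all 6 libraries and a block on the replicate number, Sox9 was at 0.34 (edgeR adjusted p = 0.0029). DESeq2 gave 0.35 without a block (DESeq2 adjusted p = 0.00462).

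Sox10 (Entrez 20665), the SoxE gene tied most closely to myelin genes, had the largest change and the largest SE. GFP-positive replicates 1, 2 and 3 stood at 39.4, 93.6 and 45.4 CPM, and the GFP-negative ones at 2.34, 12.5 and 3.53 CPM, from 77, 393 and 109 counts. Replicate 2 was highest in both fractions, yet the highest GFP-negative library remained below the lowest GFP-positive one. The log2 fold change was 3.28 (SE 0.60, edgeR adjusted p = 0.00213), and 4.36 (edgeR adjusted p = 3.63e-05) without GFP-negative replicate 2. It was 2.80 (edgeR adjusted p = 0.00796) without GFP-positive replicate 2, and 3.87 (edgeR adjusted p = 9.32e-07) without both replicate 2 libraries. The pair differences were 4.04, 2.90 and 3.66 on the log2 scale. On average the GFP-negative libraries held 10.3% of the GFP-positive Sox10 level, compared with 78.8% for Sox9 and 47.5% for Sox8.

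**Figure D2:**
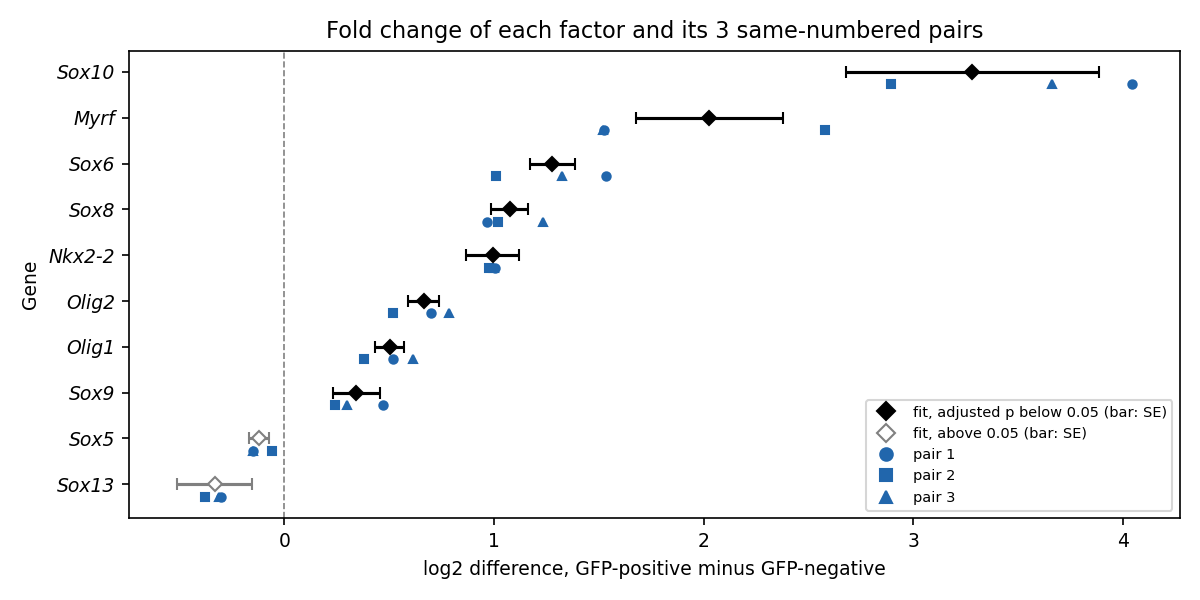
Log2 difference between GFP-positive and GFP-negative cells (x axis) for each factor (y axis): diamonds are the edgeR fit with its SE, filled where adjusted p was below 0.05, and blue symbols are the 3 same-numbered pairs. Values run from -0.33 for Sox13 to 3.28 for Sox10, and for each factor the 3 pairs lie on the same side of 0.

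To compare levels between genes, CPM was divided by the length in kb of the longest GENCODE transcript. On this scale Olig1 was first in GFP-positive cells at 975 ± 38.2 CPM per kb (SD, n = 3), a level above 99.9% of the genes tested. Olig2 (340 ± 9.74) and Sox8 (323 ± 28.8) followed, and their ranges overlapped. Next came Sox9 (155 ± 22.4), Sox6 (99.9 ± 2.71) and Nkx2-2 (53.2 ± 7.32 CPM per kb), each apart from its neighbours. Sox10 (21.4 ± 10.7) overlapped with Sox5 (14.0 ± 0.367), and Myrf (1.27 ± 0.663) with Sox13 (1.13 ± 0.176 CPM per kb). In GFP-negative cells the first 6 kept this order, from 688 ± 40.9 for Olig1 to 26.7 ± 3.97 CPM per kb for Nkx2-2, with no overlap between neighbours. Sox5 (15.2 ± 0.230) then stood above Sox10 (2.21 ± 2.00), which overlapped with Sox13 (1.42 ± 0.183), and Myrf was last at 0.311 ± 0.0176 CPM per kb (SD, n = 3). Sox10 thus lay above 78.9% of genes with GFP and above 26.1% without, while Olig2 was above 98.9% or more in both. The order depends on the length used. With the median transcript length, a choice made after seeing the data, Sox8 (1042.6 ± 93.3) came before Olig1 with overlapping ranges in GFP-positive cells, followed by Olig2, Sox6 (304 ± 8.25), Nkx2-2 (158 ± 21.7), Sox9, Sox5 (45.9 ± 1.21), Sox10 (32.2 ± 16.1), Sox13 (2.26 ± 0.353) and Myrf (2.06 ± 1.08 CPM per kb, SD, n = 3). Ranges also overlapped there for Nkx2-2 and Sox9, for Sox5 and Sox10, and for Sox13 and Myrf. In GFP-negative cells Olig1 stayed first, Sox8 (495 ± 38.2) moved above Olig2, and Sox6 (126 ± 20.1 CPM per kb, SD, n = 3) moved above Sox9, with overlapping ranges for Sox6 and Sox9.

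The make-up of each subfamily was then compared, as the share of each gene in the summed CPM per kb. Within SoxD, Sox6 took 86.9% ± 0.448 with GFP and 71.0% ± 3.57 without (SD, n = 3), and Sox5 took 12.2% ± 0.576 and 26.5% ± 3.00. Within SoxE, Sox9 took 36.5%, 26.0% and 31.1% in GFP-positive replicates 1, 2 and 3 against 45.7%, 39.2% and 47.2% in the GFP-negative ones. Sox10 made up 2.97%, 6.70% and 3.16% against 0.306%, 1.60% and 0.459%, so Sox8 and Sox9 supplied most SoxE RNA in each library. Sox8 took 64.5% ± 3.54 against 55.1% ± 3.59 (SD, n = 3). Olig1 held 74.1% ± 0.411 of the Olig sum with GFP and 76.2% ± 0.626 without (SD, n = 3). In all 8 shares the fractions did not overlap, and each gave p = 0.1 in the two-sided exact permutation test, the smallest that 3 against 3 allows. The shares of a subfamily sum to its whole, so the 8 are not independent, and Olig2 mirrors Olig1. In CPM, the fractions did not overlap for 31.3% (higher) and 33.0% (lower) of all genes tested. A rate for shares was not computed. The summed level was 1.46 times as high in GFP-positive cells for Olig, 1.99 times for SoxD and 1.80 times for SoxE, each also with exact permutation p = 0.1.

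**Figure D3:**
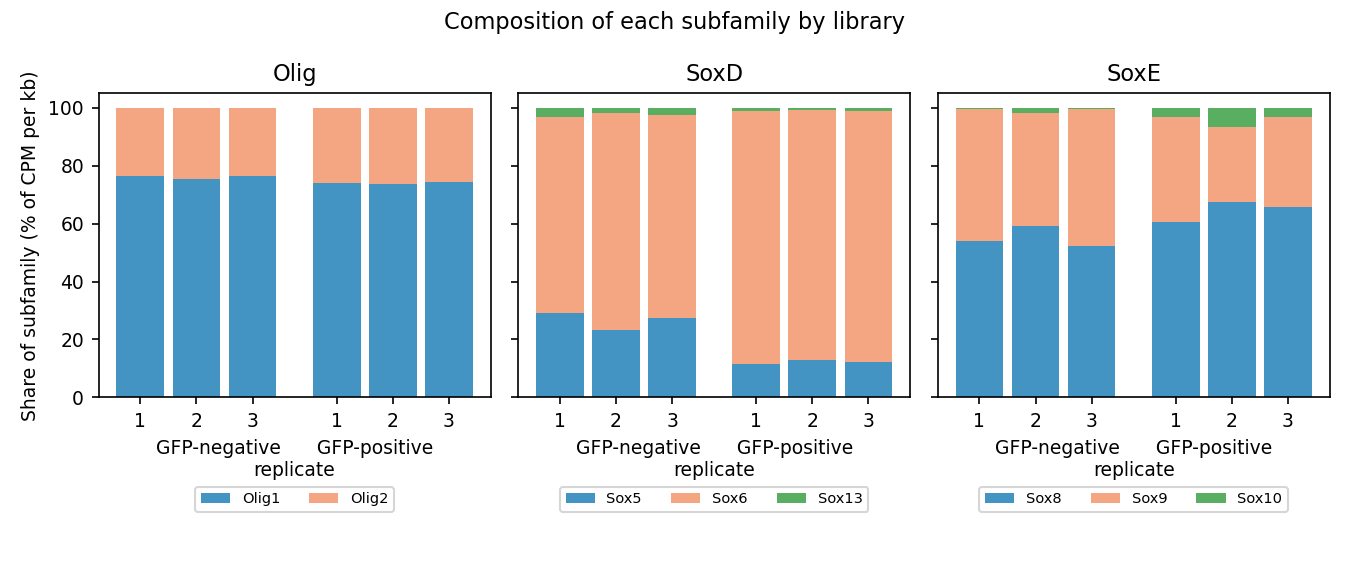
Share of each gene in the summed CPM per kb of its subfamily (y axis, percent) in each library (x axis), for Olig, SoxD and SoxE. The Sox6 part is larger in each GFP-positive library than in each GFP-negative one, Sox10 is at most 6.70% of SoxE, and the Olig split changes by 2.12 percentage points.

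The factors differed in how much they varied among libraries of the same fraction. In GFP-positive cells the coefficient of variation was 2.63% for Sox5, 2.71% for Sox6, 2.86% for Olig2 and 3.92% for Olig1. It was 49.9% for Sox10 and 52.4% for Myrf. Replicate 2 was the highest library in both fractions for Sox10, Myrf and Nkx2-2, and the lowest in both for Sox9 and Sox13. Over all genes tested, 17.7% were highest and 17.4% lowest in both replicate 2 libraries, against 3 and 2 of these 10. Other genes moved with Sox10 and Myrf in GFP-positive replicate 2. Mbp, a myelin protein gene, was at 5.12, 12.7 and 4.90 CPM in GFP-positive replicates 1, 2 and 3, and Enpp6, a marker of newly forming oligodendrocytes, at 0.136, 4.08 and 0.517 CPM. Col3a1, a fibroblast collagen gene, was also highest in replicate 2, at 0.0272, 9.18 and 1.12 CPM with GFP, against 0.758, 102 and 20.6 CPM without. Col1a1 did not exceed 1.30 CPM in any library. Myh11, another fibroblast and mural marker, was lowest in replicate 2. It stood at 0.872, 0.419 and 1.36 CPM with GFP and at 8.10, 3.44 and 14.1 CPM without. Not all markers of the oligodendrocyte stages moved with Sox10 and Myrf. Of these, 6 of 8 for committed precursors and 5 of 11 for myelinating cells were highest in GFP-positive replicate 2. Cnp (192, 169 and 202 CPM) and Bcas1 (244, 226 and 235 CPM) were lowest there. Nor was this particular to these stages: 8 of 11 astrocyte markers were highest in that library and 1 was lowest. Of 12 precursor markers, 6 were highest and 4 lowest there. The share over all genes was not computed. The part of these markers in the Sox10 and Myrf values was not tested. Enpp6, Mbp and Col3a1 were picked here with their values known.

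**Figure D4:**
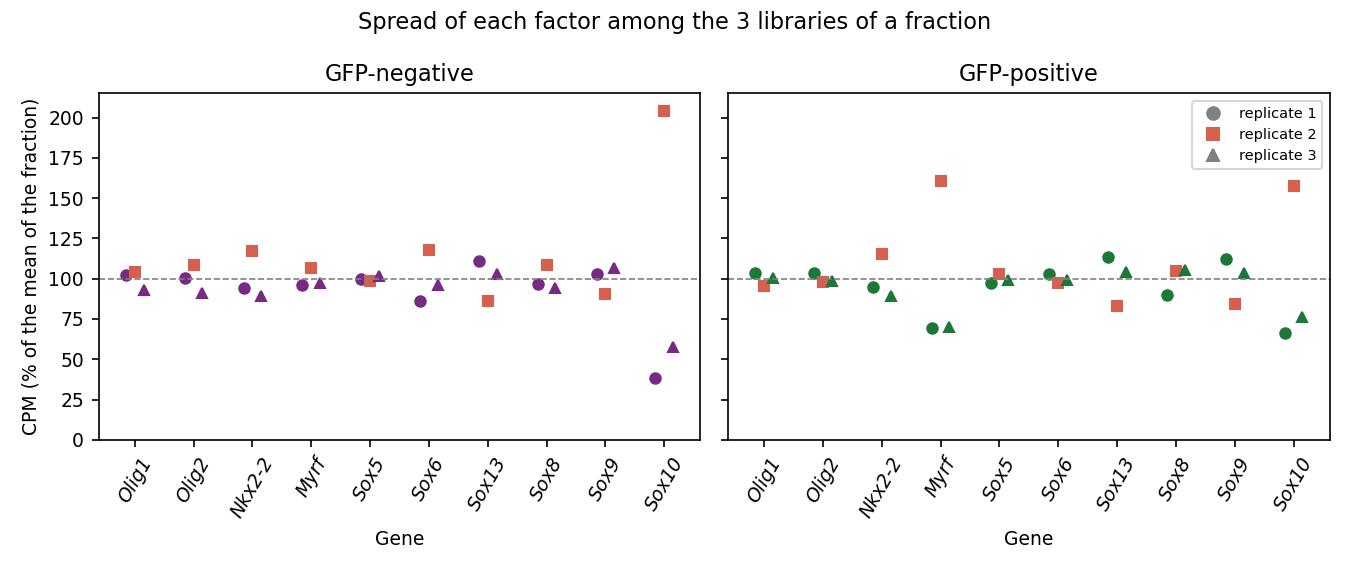
CPM of each factor in each library as a percent of the mean of its fraction (y axis), for GFP-negative and GFP-positive cells. Replicate 2 (red squares) stands far above replicates 1 and 3 for Sox10 in both fractions and for Myrf in GFP-positive cells, and below them for Sox9 and Sox13.

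Genes that work with the factors were counted from lists by role. The counts stand beside 26.1% of all genes tested called higher and 29.2% called lower. Of the 3 E-proteins that pair with Olig factors through their bHLH domains, Tcf4 (log2 fold change 0.67) and Tcf12 (0.58) rose, and Tcf3 stood at 157 ± 11.9 against 146 ± 1.98 CPM (SD, n = 3) without passing. Of 6 Id and Hes genes, which block or oppose bHLH factors, 4 fell and 1 rose, with a median of -2.32. Hes1, Id3, Hes5 and Id1 had log2 fold changes of -3.48, -3.23, -2.85 and -1.78. Id2 rose by 1.86, and Id4 stood at 20.5, 26.7 and 19.5 CPM against 7.89, 41.5 and 9.04 CPM, with GFP-negative replicate 2 the highest. Without that library 2 genes of this list rose, and likewise without both replicate 2 libraries. Of 7 chromatin partners described for Olig2 and Sox10, 5 rose and 0 fell, with a median of 0.37. Chd7, a chromatin remodeller, had the largest change at 0.84, at 1218.4 ± 23.7 against 681 ± 36.1 CPM (SD, n = 3), followed by Carm1 (0.46), Smarca4 (0.41), Chd8 (0.37) and Hdac2 (0.34). Hdac1 and Med12 did not pass.

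Other transcription factors of the lineage were called in both directions, 6 higher (26.1% of all genes) and 3 lower (29.2% of all genes) of 12 tested. The median was 0.26. Myt1, a zinc finger factor of precursors, rose from 220 ± 33.1 to 625 ± 34.6 CPM (SD, n = 3). Zfp536 rose by 1.46 on the log2 scale, Hes6 by 0.96, Zfp488 by 0.71 and Zeb2 by 0.48. Prrx1 (-1.82) and Tcf7l2 (-0.36), a Wnt effector of differentiating cells, fell. Nkx6-2 (-1.23) was called lower too, but lost its call in 7 of the 9 fits that left out libraries (edgeR adjusted p up to 0.292). Without replicate 3 the lower count was 1, as Tcf7l2 (0.0647) also lost its call. St18 and Olig3 did not pass the count filter, and Olig3 had 0 counts.

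Genes reported as targets of Sox10 or Myrf were called in both directions. Of 17 listed, 11 were tested, 5 rose (26.1% of all genes) and 3 fell (29.2% of all genes), with a median of 0.43. Mbp rose by 2.50, Nfasc (a neurofascin gene) by 1.75, Dusp15 by 1.69, Cspg4 (the NG2 proteoglycan of precursors) by 1.14 and Cnp by 0.43. Of 9 fits with libraries left out, 4 ended the call of Cnp (edgeR adjusted p up to 0.1). Trf (transferrin) and Aspa had log2 fold changes of -4.12 and -4.08, with Aspa at 0.129 ± 0.0379 against 2.21 ± 0.517 CPM (SD, n = 3). Mag, Mog, Mobp, Opalin, Ermn and Gjb1, most of them genes of compact or mature myelin, were below the filter, with at most 15 counts over the 3 libraries of a fraction. Of the genes that control Myrf protein, Tmem98, which binds Myrf and blocks its self-cleavage, fell from 24.9 ± 2.57 to 13.1 ± 1.18 CPM (SD, n = 3; log2 fold change -0.93). Fbxw7, part of a ubiquitin ligase that acts on Myrf, rose by 0.33. Myrfl, a paralog of Myrf, stood at 0.856 against 0.466 CPM, did not pass, and passed without GFP-negative replicate 1.

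The other Sox genes served as a comparison. Of 14 listed, 11 were tested, 4 rose (26.1% of all genes) and 3 fell (29.2% of all genes), with a median of 0.18. The counts were 8 and 0 of 10 for the factors described here. Those counts include Olig1, Olig2, Nkx2-2 and Myrf, which are not Sox genes and all rose. Of the Sox genes among the factors, Sox6, Sox8, Sox9 and Sox10 rose, and Sox5 and Sox13 did not pass. Sox4, Sox3, Sox12 and Sox11 rose by 0.95, 0.80, 0.48 and 0.35, and Sox7, Sox1 and Sox2 had log2 fold changes of -3.98, -1.80 and -0.40. Sox11 lost its call without replicate 1 and without replicate 3 (edgeR adjusted p up to 0.0777). The difference between the lists was not tested.

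The genes most alike to each factor were taken as those with the smallest root mean square difference in log2 CPM, centred on the mean of each gene, over the 6 libraries (11968 genes compared). Because the fractions differ, any gene of similar fold change is close by this measure. Sox10 was nearest to Chd3 (0.298), Grin3a (0.36) and Dpp10 (0.368), and Myrf to Vwc2 (0.249), Col9a1 (0.275) and Amz1 (0.289). Both were farther from their closest genes than any other factor was. Olig1 was nearest to Ppp2r3c, Trim27 and Zfp281 (0.0155 to 0.0232), and Olig2 to Ccdc50, Lhfpl4 and Lcorl (0.0132 to 0.0279). Sox6 was nearest to A230057D06Rik, Tiam1 and Adam22, Sox8 to Cerox1, Gsn and Stk33, and Nkx2-2 to Six4, Pclo and Nap1l2. Sox5 lay closest to Psmc2, Vapb and Rpap1, Sox9 to Dimt1, Plppr4 and Galnt16, and Sox13 to Acad8, Dnajc12 and Med21. Among the factors themselves, Olig1 and Olig2 were each other's nearest (0.0888), as were Sox8 and Nkx2-2 (0.136) and Sox5 and Sox13 (0.213), whereas the factor nearest to Sox10 was Myrf at 1.07.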

How the data were processed

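The deposited table holds raw read counts for each gene as deposited (unit and lack of scaling per the file headers). The submitters' processing notes name TopHat2 2.1.1, featureCounts 2.0.0 and build mm39. The sources used here do not give the annotation, strand setting or handling of duplicates, and counts hold PCR copies, so depth covers counting error only.

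Counts were tested with edgeR 4.0.16 (R 4.3.3): TMM scaling, filterByExpr, quasi-likelihood F tests, with p adjusted by Benjamini-Hochberg over 14554 genes and a threshold of 0.05. This main fit held no replicate block, so its p-values and SEs are unpaired. The exact permutation tests did not use the replicate numbers either. The SE was obtained as the log2 fold change over the root of F. CPM was computed with TMM-scaled library sizes, and log2 CPM with a prior count of 2. The test was checked on simulated counts. Transcript lengths, GC and gene overlaps came from GENCODE M21 (GRCm38), another build than the counts, so no gene coordinates are given beyond the RefSeq windows.

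The factors and lists were chosen with earlier results of these data known. Named genes were all 10 factors, Pdgfra, every called list member where a direction had 6 or fewer (otherwise the 3 with the smallest p), and the 3 most alike genes of each factor among genes averaging log2 CPM 1 or more; a few list members are not reported here. Same-numbered libraries deviated together (correlations of 0.218, 0.355 and 0.159 across genes, all above 0.1; of the unmatched pairs, GFP-positive 3 with GFP-negative 1 gave 0.128 and the others -0.306 to 0.00967), so the numbers were taken to pair the samples, while the labels do not say what they mark. Chi-square over degrees of freedom between libraries of a fraction was 9.83 to 34.2, above counting noise, so none was taken as a repeat. Alternatives were RLE, upper-quartile and library-size scaling, 2 other filters, DESeq2 1.42.0, limma-voom 3.58.1, a replicate block, the block with length and GC trends removed, and leaving out libraries; setting the median of all genes to 0, and levels per kb of the median transcript length, were added after seeing the data.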

Additional observations from a re-analysis of the deposited data

How the results depend on the processing

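Each factor was refitted under 19 alternatives, and the direction of all 10 held in every one. Olig1, Olig2, Nkx2-2, Myrf, Sox6, Sox8 and Sox10 kept their calls in all 19. Scaling so that the median of all genes was 0, chosen after seeing the data, changed no call of a factor.

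Fits that left out libraries gave 2450 to 4169 higher genes over all genes (2450 without replicate 3), 7 to 8 higher and 0 lower factors, and log2 fold changes of 0.27 to 0.46 for Sox9. They gave 1 to 4 lower among other lineage factors, 1 to 2 higher among Id and Hes genes and 1 to 2 higher among Myrf regulators. The cause was not tested.

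The numbers were taken to pair the samples, though the labels do not say what they mark. The main fit did not use this pairing. The replicate block changed no call of a factor and gave 3918 higher and 4422 lower genes. With the block the edgeR adjusted p was 2.8e-06 for Sox10 (0.00213 without) and 0.101 for Sox5 (0.0627 without). With the replicate block and the length and GC trend removed, 2 factors were lower (Sox5 at -0.31 and Sox13 at -0.42), as were 5 other lineage factors. With upper-quartile scaling 1 factor was lower (Sox5, -0.14), and likewise with a filter of 1 CPM in 3 libraries (Sox5, -0.13). Differences in share depended on the length used: for Sox13 within SoxD -0.70 percentage points with counts not divided by length (-1.51 otherwise), and with the median transcript length 4.99 for Sox8 (9.40 otherwise) and -7.06 for Sox9 (-12.9 otherwise) within SoxE. Depth limits Myrf, Sox13 and, in GFP-negative cells, Sox10, which had 53 to 522, 141 to 192 and 77 to 393 counts per library. Single values within groups of 3 were not screened for outliers, and the exact test cannot go below 0.1.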
